A study of Mus musculus with 24 samples.

Results

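The subunits of RNA polymerase II (Pol II) and of the Mediator complex were followed in mouse oocytes with and without the chromatin remodeller Snf2h. The members are the genes of the expression table whose symbol is Polr2 followed by a letter from a to m, or Med followed by a number with or without a final l. The rule found 43 of the 16940 genes kept, 13 Polr2 genes and 30 Med genes, and used no measured value. RNA-seq was made from B6/129 oocytes, with 20 oocytes in each library and 2 libraries in each of 8 groups. The wild type (WT) carried the floxed Snf2h allele on both chromosomes, written Snf2h(fl/fl), with no Cre. The knockout (KO) carried the same floxed alleles with ZP3-Cre, a Cre recombinase driven by the promoter of a zona pellucida gene that is active in growing oocytes. Cre was present in the KO alone, so an effect of Cre and an effect of Snf2h loss cannot be told apart. The 4 stages were named GO1 for growing oocytes of 40 to 45 µm in diameter and GO2 for those of 50 to 55 µm. Fully grown oocytes above 70 µm were called nFGO when collected without hormone and FGO when collected after hormone stimulation. The ages of the mice were not given in the sources used here. The labels do not say that the 2 libraries of a group came from separate animals, so p-values measure only the spread between these libraries.

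Pol II makes the messenger RNA of the nuclear genome. A core of subunits particular to Pol II works together with a set of subunits that are also built into Pol I and Pol III, and Mediator carries signals from DNA-bound activators to Pol II through its head, middle, tail and kinase modules. A mouse oocyte transcribes and stores RNA while it grows, and around the end of growth its genome falls silent and it relies on stored messages.

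Values were RPKM, reads scaled to the length of the gene and to the mapped reads of the library, so an RPKM is a share of a library and not an amount per oocyte. As a share, it can also change when the other messages of the library change, and the amount of RNA in an oocyte is not known from it. RPKM totals ran from 832384 to 1011538 per library, and 12613 to 12919 genes reached 1 RPKM. The read depth of each library is unknown. The deleted gene Smarca5, which encodes Snf2h, stood at 40.0 and 43.02 RPKM in the WT GO1 libraries and at 1.61 and 2.06 RPKM in KO GO1, and every KO library lay below every WT library. One WT library stood apart for it: WT FGO replicate 2 held 13.9 RPKM against 48.7 RPKM in WT FGO replicate 1. All 12 oocyte markers reached 1 RPKM in every library. Summed granulosa cell markers were 14.3 to 33.4 RPKM in growing and 36.3 to 72.1 RPKM in fully grown libraries, against 11168 to 25141 RPKM for the oocyte markers, and reached 63.7 to 72.1 RPKM in KO nFGO. These sums cover the 6 of 12 listed granulosa markers found in the table, of which 3 to 6 reached 1 RPKM and at most 1 was at 0 in a library. In WT the number that reached 1 RPKM did not rise with the sum. It was 5 in both WT GO1 libraries, 3 and 4 in WT nFGO and 3 in both WT FGO libraries. In KO it was 5 in both GO1 libraries, 5 and 6 in nFGO and 4 and 3 in FGO. Theca and stroma markers summed to 0.330 to 11.9 RPKM, the highest in a WT GO2 library, and blood and immune markers to 1.83 to 5.65 RPKM. Only 3 of 7 listed theca and stroma markers and 1 of 5 listed blood and immune markers were found in the table.

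All 43 members passed the filter of at least 1 RPKM in at least 2 of the 16 libraries. At WT GO1 20 of the 43 had a mean of 100 RPKM or more and 5 a mean under 5 RPKM, and the mean RPKM of the members ran from 0.954 for Med12l to 2044 for Polr2j. The highest levels were those of Polr2j, which encodes the RPB11 subunit of the core, at 2065 and 2023 RPKM, of the Mediator head subunit Med28 at 1938 and 2081 RPKM, and of the tail subunit Med27 at 1384 and 1424 RPKM. The WT GO1 libraries of Polr2j and of Med28 overlapped, and Med27 lay below both.

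The catalytic subunit stood at the other end. Polr2a (ENSMUSG00000005198.15, chr11:69733997-69758637, minus strand; all positions are mm10) encodes RPB1, whose long repeated tail takes up the phosphate marks of initiation and elongation. It held 2.78 and 1.90 RPKM in WT GO1, which was rank 41 of the 43 members. Only Med13l and Med12l had lower means at that stage, and the WT GO1 libraries of Polr2a and Med13l overlapped. Polr2b, which encodes RPB2, the other large catalytic subunit, held 30.8 and 34.6 RPKM in the same libraries. The other 5 core subunits, Polr2c, Polr2d, Polr2g, Polr2i and Polr2j, had means of 268 to 2044 RPKM.

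In Mediator, the head had a median of 155 RPKM at WT GO1 and the middle a median of 134 RPKM. The tail, which meets the activators, had a median of 13.1 RPKM over its 7 members, with Med27 far above the other 6. The kinase module, which docks reversibly and holds Mediator off Pol II, was the lowest: its 4 members here, Med12, Med12l, Med13 and Med13l, had a median of 2.54 RPKM. The partners that complete that module were higher, with the kinase Cdk8 at 25.3 and 24.7 RPKM and its cyclin Ccnc at 92.5 and 96.0 RPKM, while the second kinase gene Cdk19 held 0.429 and 0.441 RPKM. Med12 and Med12l, and Med13 and Med13l, are pairs of related genes, and how the authors assigned reads that match both is not given in the sources used here.

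**Figure D1:**
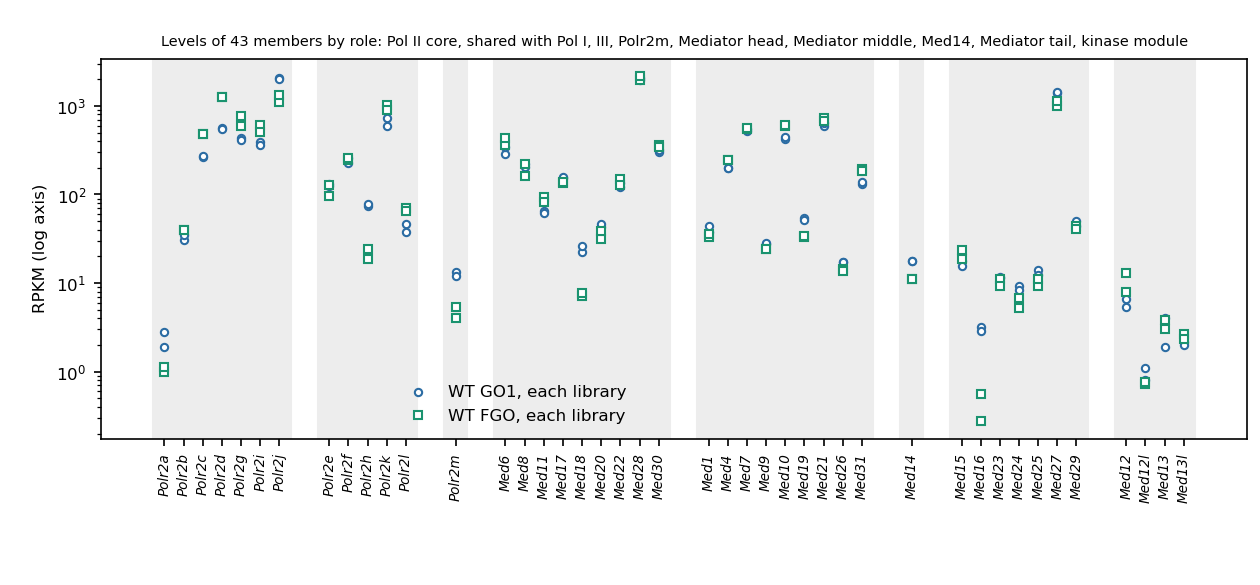
RPKM of the 43 members on a log axis in the 2 WT GO1 libraries (circles) and the 2 WT FGO libraries (squares), with grey bands marking the roles named in the title. The members span from under 1 RPKM to about the 2044 RPKM mean of Polr2j, and the kinase module and Polr2a lie at the low end.

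The RPKM of the members was summed in each library and was not divided by the RPKM total of that library. The 13 Polr2 genes summed to 4861 and 4866 RPKM in the WT GO1 libraries and to 5558 and 5771 RPKM in WT FGO. The 30 Med genes summed to 6684 and 7030 RPKM in WT GO1 and to 6827 and 7220 RPKM in WT FGO. The WT GO1 and WT FGO sums did not overlap for Polr2 and did for Med. RPKM totals were also higher in WT FGO, at 964523 and 994118 against 920309 and 909689 in WT GO1. A higher sum is thus not in itself a larger share of the total, and whether the shares overlap was not tested. The highest group mean of a member was 1.16 to 10.1 times its lowest, with a median of 1.75 times. The ratio was under 1.5 for 13 members and 2 or more for 12.

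**Figure D2:**
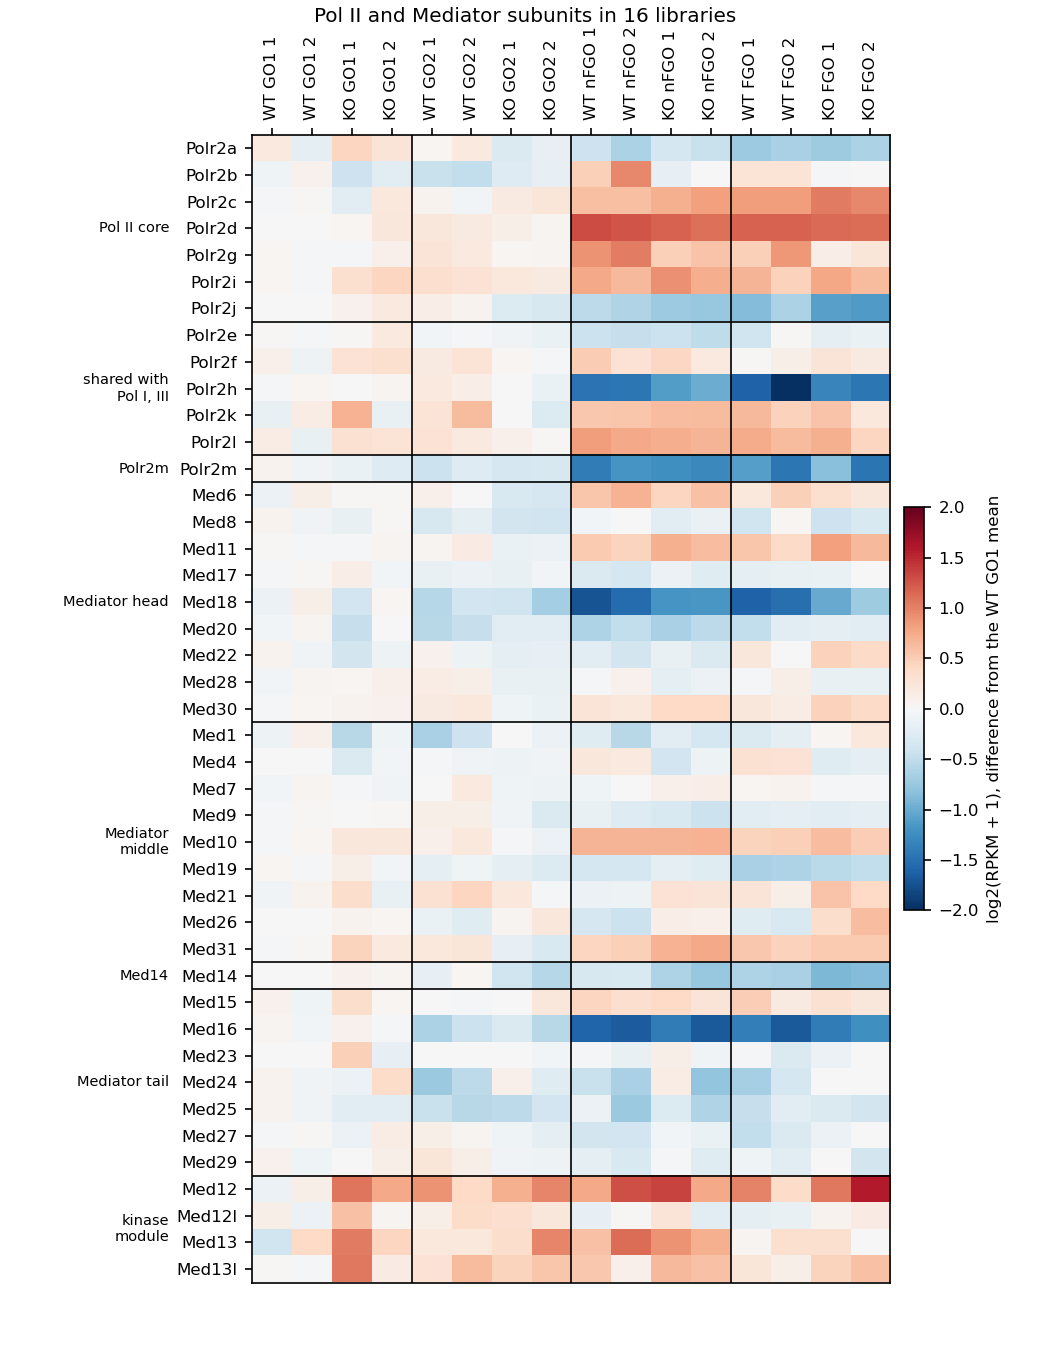
Each row is a member and each column a library, and the colour is log2(RPKM + 1) less the mean of the 2 WT GO1 libraries of that row, on a scale from -2 to 2. The strongest blocks appear between the 8 growing (left) and the 8 fully grown (right) libraries, where Polr2h, Med16, Med18 and Polr2m are lower and Polr2d and Polr2c higher in both genotypes.

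Late growth, FGO against GO2, was where most members changed. The libraries of these 2 stages all carry the total RNA label. Hormone stimulation is named for FGO and not for GO2, so growth and hormone cannot be told apart in this step. In WT oocytes 21 of 43 members passed an adjusted p under 0.05, 11 higher and 10 lower in FGO, where 48.4% of all 14557 genes tested were called, 26.3% higher and 22.1% lower. The share of members called was thus close to that of all genes, and the median log2 fold change was -0.016 over the members and 0.040 over all genes. Of the 10 WT calls in the polymerase, 6 were higher and 4 lower; of the 11 in Mediator, 5 were higher and 6 lower. Changes are on the log2(RPKM + 1) scale, which understates those of genes near or below 1 RPKM. All tests are limma's moderated test with Benjamini-Hochberg adjustment over all genes tested.

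The polymerase core split. Polr2d (ENSMUSG00000024258.4, chr18:31789159-31796701, plus strand) encodes RPB4, which forms the stalk of the enzyme with RPB7. It held 649 and 628 RPKM in WT GO2 and 1259 and 1261 RPKM in WT FGO, which did not overlap, and it rose (log2 fold change 0.98, SE 0.071, adjusted p = 8.71e-07). The other stalk subunit, RPB7, is encoded by Polr2g (ENSMUSG00000071662.3, chr19:8793129-8798557, minus strand). Polr2g held 509.7 and 489 RPKM in WT GO2 and 591 and 777 RPKM in WT FGO and rose (log2 fold change 0.44, SE 0.11, adjusted p = 0.00629), a call lost without WT FGO replicate 2 (log2 fold change 0.24, adjusted p = 0.0683).

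RPB3 and RPB11 pair with each other at an early step of enzyme assembly, and their messages moved in opposite directions. Polr2c (ENSMUSG00000031783.10, chr8:94857450-94873535, plus strand), which encodes RPB3, held 282 and 258 RPKM in WT GO2 and 481 and 481 RPKM in WT FGO and rose (log2 fold change 0.83, SE 0.11, adjusted p = 9.81e-05). Polr2j (ENSMUSG00000039771.13, chr5:136116631-136122947, plus strand), which encodes RPB11, held 2230 and 2155 RPKM in WT GO2 and 1117 and 1316 RPKM in WT FGO and fell (log2 fold change -0.85, SE 0.077, adjusted p = 4.6e-06). Neither gene's libraries overlapped between the stages. As means, Polr2j exceeded Polr2c at both stages, with 2192 against 270.3 RPKM in WT GO2 and 1217 against 481 RPKM in WT FGO.

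The catalytic pair also moved in opposite directions. Polr2a held 2.41 and 2.81 RPKM in WT GO2 and 0.998 and 1.12 RPKM in WT FGO and fell (log2 fold change -0.81, SE 0.17, adjusted p = 0.00187). Polr2b (ENSMUSG00000029250.5, chr5:77310147-77349324, plus strand) held 23.6 and 22.9 RPKM in WT GO2 and 39.8 and 39.9 RPKM in WT FGO and rose (log2 fold change 0.75, SE 0.15, adjusted p = 0.00127). Neither overlapped between the stages. Polr2b shares 85 bases at its end with Igfbp7 on the opposite strand, which had a mean of 10.8 RPKM in WT GO2 and 64.6 RPKM in WT FGO, and the part of its reads in the Polr2b value was not tested. Polr2i, which encodes RPB9, a subunit with a part in accurate transcription in yeast, had the smallest rise (0.26, adjusted p = 0.0417), lost without WT GO2 replicate 1 (0.0963), WT GO2 replicate 2 (0.153) or WT FGO replicate 1 (log2 fold change 0.14, adjusted p = 0.304) and under both rescalings of the libraries.

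Among the subunits shared with Pol I and Pol III, Polr2h stood out. Polr2h (ENSMUSG00000021018.8, chr16:20717665-20722267, plus strand) encodes RPB8, a small subunit found in all 3 polymerases. It held 87.9 and 83.7 RPKM in WT GO2 and 24.2 and 18.5 RPKM in WT FGO and had the largest fall of the 43 members (log2 fold change -1.97, SE 0.12, adjusted p = 3.86e-07). The other collection of fully grown WT oocytes, nFGO, held 26.9 and 27.3 RPKM, also far below GO2. Polr2l, which encodes RPB10, rose (0.44, adjusted p = 0.00989), a call lost without WT GO2 replicate 2 (0.0683) or WT FGO replicate 1 (0.065). The other shared subunits Polr2e, Polr2f and Polr2k did not pass the test, at -0.14, -0.16 and 0.10. RefSeq names pseudogenes of Polr2d and of Polr2k, and reads from such copies could be counted with the genes.

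Polr2m (ENSMUSG00000032199.13, chr9:71478437-71485935, minus strand) encodes Gdown1, a protein that binds Pol II and makes it dependent on Mediator in human and cattle extracts. It held 9.23 and 10.5 RPKM in WT GO2 and 5.36 and 4.02 RPKM in WT FGO, which did not overlap, and it fell (log2 fold change -0.94, SE 0.20, adjusted p = 0.00211).

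In the Mediator tail, Med16 (ENSMUSG00000013833.15, chr10:79894708-79908923, minus strand) held 1.62 and 2.01 RPKM in WT GO2 and 0.557 and 0.274 RPKM in WT FGO and fell (log2 fold change -0.995, SE 0.17, adjusted p = 0.000602). Its highest group mean over the whole series, at KO GO1, was 10.1 times its lowest, at WT nFGO, the widest span of any member. All of these levels are low, and each of its 8 fully grown libraries was under 1 RPKM. In the head, Med18 (ENSMUSG00000066042.4, chr4:132458731-132463921, minus strand), part of the movable jaw that touches Pol II in yeast, held 16.0 and 18.3 RPKM in WT GO2 and 7.201 and 7.82 RPKM in WT FGO and fell (log2 fold change -1.09, SE 0.18, adjusted p = 0.00034). Neither gene's libraries overlapped.

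The other Mediator falls in WT were smaller. The scaffold Med14, which holds head, middle and tail together, held 15.8 and 18.4 RPKM and then 11.2 and 10.98 RPKM (-0.57, adjusted p = 0.00234). The middle subunit Med19 changed by -0.50, adjusted p = 0.00107 and the tail subunit Med27 by -0.47, adjusted p = 0.0014. The middle subunit Med9 also fell (-0.32, adjusted p = 0.0302), but its call was lost without any 1 of the 4 libraries, at adjusted p of 0.0781 to 0.106. The 5 Mediator rises were Med6 and Med11 of the head and Med4, Med10 and Med31 of the middle, at 0.28 to 0.36, and of these only Med10 (0.30, adjusted p = 0.00368) kept its call without each of the 4 libraries. Med11 was lost without WT GO2 replicate 1 (0.0623) or WT FGO replicate 1 (0.0785), and Med4 without WT GO2 replicate 2 (0.0711) or WT FGO replicate 1 (0.0518). Med6 was lost without WT GO2 replicate 1 (0.0712), WT GO2 replicate 2 (0.177) or WT FGO replicate 2 (log2 fold change 0.16, adjusted p = 0.304), and Med31 without any 1 of the 4 (0.0506 to 0.126). No tail or kinase module member passed as higher. The tail subunit Med15 had a log2 fold change of 0.35, adjusted p = 0.075, within the range of the called Mediator rises, and its 4 fully grown WT libraries lay above its 4 growing ones.

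Summed granulosa markers were 16.7 to 22.1 RPKM in WT GO2 and 36.3 to 45.2 RPKM in WT FGO, and 26.6 to 33.4 RPKM in KO GO2 and 46.3 to 51.8 RPKM in KO FGO; their part in these changes was not tested. Of the 21 WT calls, 13 were kept without each of the 4 libraries in turn: Polr2a, Polr2b, Polr2c, Polr2d, Polr2h, Polr2j, Polr2m, Med10, Med14, Med16, Med18, Med19 and Med27. WT FGO replicate 2, the library with less Smarca5, was among those left out.

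**Figure D3:**
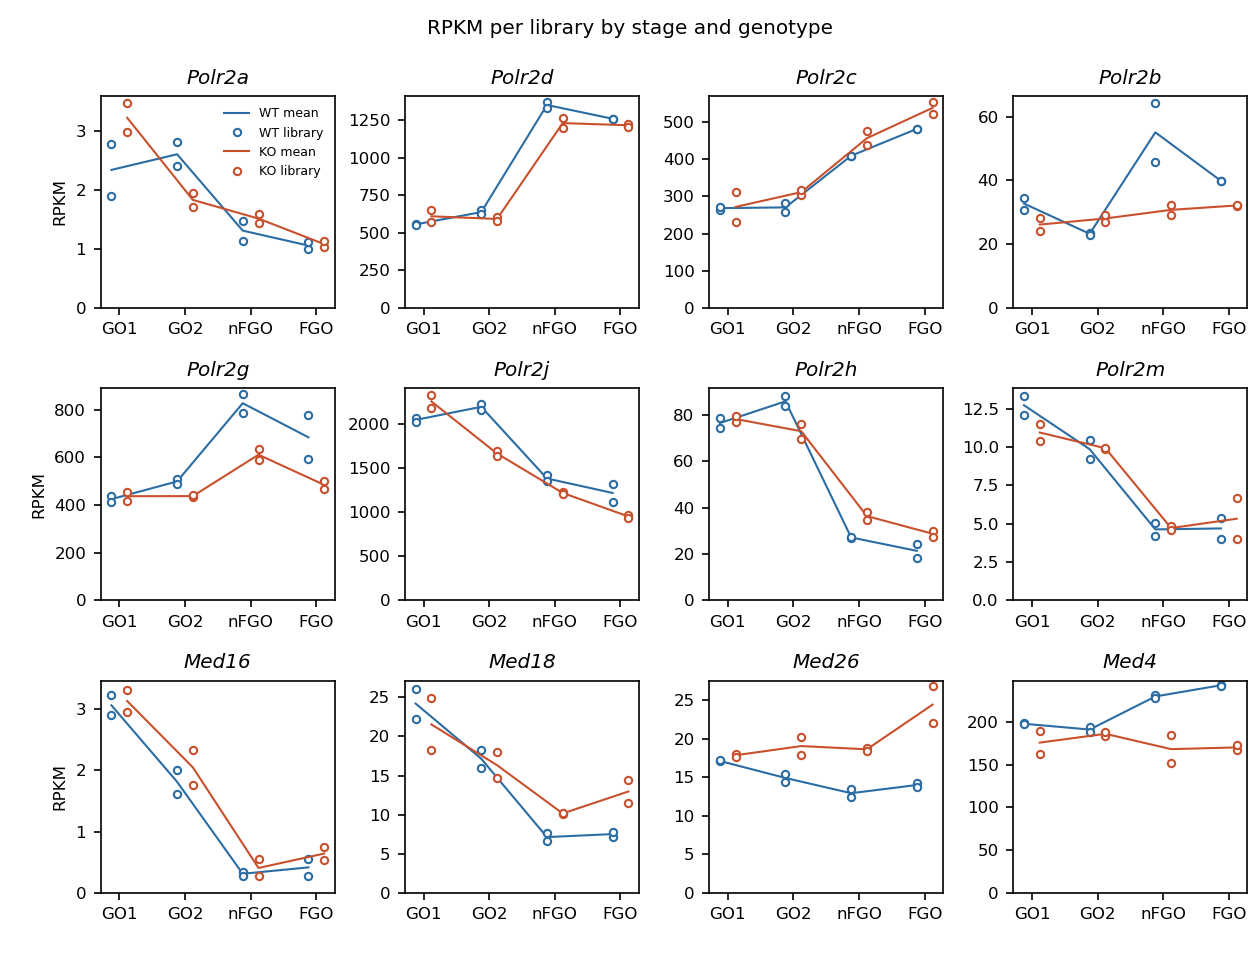
RPKM of 12 members at each stage, with a circle for each library, a line through the 2-library means, WT in blue, KO in orange, and each vertical axis starting at 0. Polr2h, Polr2m, Med16, Med18 and Polr2a are lower in all 8 fully grown libraries than in all 8 growing ones, and Polr2d and Polr2c are higher.

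KO oocytes were tested for the same step with libraries of their own. There 18 of 43 members passed, 12 higher and 6 lower in FGO, where 41.7% of all genes were called, 22.3% higher and 19.4% lower. Polr2d had the largest rise and Polr2h the largest fall of the members here too. Polr2d held 607 and 579 RPKM in KO GO2 and 1226 and 1207 RPKM in KO FGO (log2 fold change 1.04, SE 0.071, adjusted p = 1.67e-06). Polr2h held 76.3 and 69.7 RPKM in KO GO2 and 30.1 and 27.4 RPKM in KO FGO (log2 fold change -1.31, SE 0.12, adjusted p = 1.14e-05). Neither overlapped between the stages.

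The assembly pair moved apart in the KO as well. Polr2c held 305 and 318 RPKM in KO GO2 and 554 and 522 RPKM in KO FGO and rose (log2 fold change 0.79, SE 0.11, adjusted p = 0.000208). Polr2j held 1694 and 1632 RPKM and then 966 and 935 RPKM and fell (log2 fold change -0.81, SE 0.077, adjusted p = 1.25e-05). The libraries of neither gene overlapped. Polr2a was lower in both KO FGO libraries, at 1.03 and 1.14 RPKM, than in both KO GO2 libraries, at 1.71 and 1.95 RPKM, but did not pass the test (log2 fold change -0.44, SE 0.17, adjusted p = 0.052). Polr2b held 27.1 and 29.0 RPKM in KO GO2 and 31.9 and 32.3 RPKM in KO FGO and did not pass either (0.19, adjusted p = 0.326).

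In Mediator 8 members rose and 3 fell in KO. Med11 (ENSMUSG00000018923.13, chr11:70451919-70453727, plus strand), which pairs with Med22 at the base of the head, held 57.6 and 58.3 RPKM in KO GO2 and 113 and 100.5 RPKM in KO FGO and rose (log2 fold change 0.87, SE 0.097, adjusted p = 3.5e-05). Med31 (ENSMUSG00000020801.8, chr11:72211724-72215592, minus strand), a small and highly conserved middle subunit, held 119.9 and 108 RPKM in KO GO2 and 193 and 195 RPKM in KO FGO and rose (log2 fold change 0.76, SE 0.092, adjusted p = 6.35e-05). Neither overlapped between the stages. Med10, Med22, Med6 and Med30 also rose, at 0.53 to 0.62, and kept their calls without each of the 4 libraries, as did Polr2i (0.51, adjusted p = 0.00108).

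Med16 held 2.34 and 1.76 RPKM in KO GO2 and 0.538 and 0.745 RPKM in KO FGO and fell (log2 fold change -0.89, SE 0.17, adjusted p = 0.00165). Polr2m held 9.90 and 9.94 RPKM and then 6.65 and 3.998 RPKM and fell (log2 fold change -0.82, SE 0.20, adjusted p = 0.00597), a call lost without KO FGO replicate 2 (log2 fold change -0.51, adjusted p = 0.0718). The weaker KO calls Polr2l, Med14, Med21, Med26 and Med19 were lost without single libraries. Polr2l was lost without KO FGO replicate 1 (0.0639), and Med14 without KO GO2 replicate 1 (0.163), KO FGO replicate 1 (0.0933) or KO FGO replicate 2 (0.0728). Med21 was lost without KO GO2 replicate 2 (0.231), KO FGO replicate 1 (0.197) or KO FGO replicate 2 (0.0537), and Med26 without KO GO2 replicate 1 (0.258), KO GO2 replicate 2 (0.061) or KO FGO replicate 2 (log2 fold change 0.21, adjusted p = 0.313). Med19 was lost without any 1 of the 4 (0.0727 to 0.165).

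The WT and KO changes of late growth rest on separate libraries. They had the same sign for 33 of 43 members, 76.7%, and for 78.6% of all genes. Across the 43 members the WT and KO log2 fold changes correlated at r = 0.836, and across all genes at r = 0.754, as descriptions over genes that share the same libraries. Both genotypes called 14 members, 8 higher and 6 lower, which is 66.7% of the WT calls and 77.8% of the KO calls; over all genes these shares were 63.7% and 73.9%. The 8 higher in both were Polr2c, Polr2d, Polr2i, Polr2l, Med6, Med10, Med11 and Med31, and the 6 lower in both were Polr2h, Polr2j, Polr2m, Med14, Med16 and Med19.

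**Figure D4:**
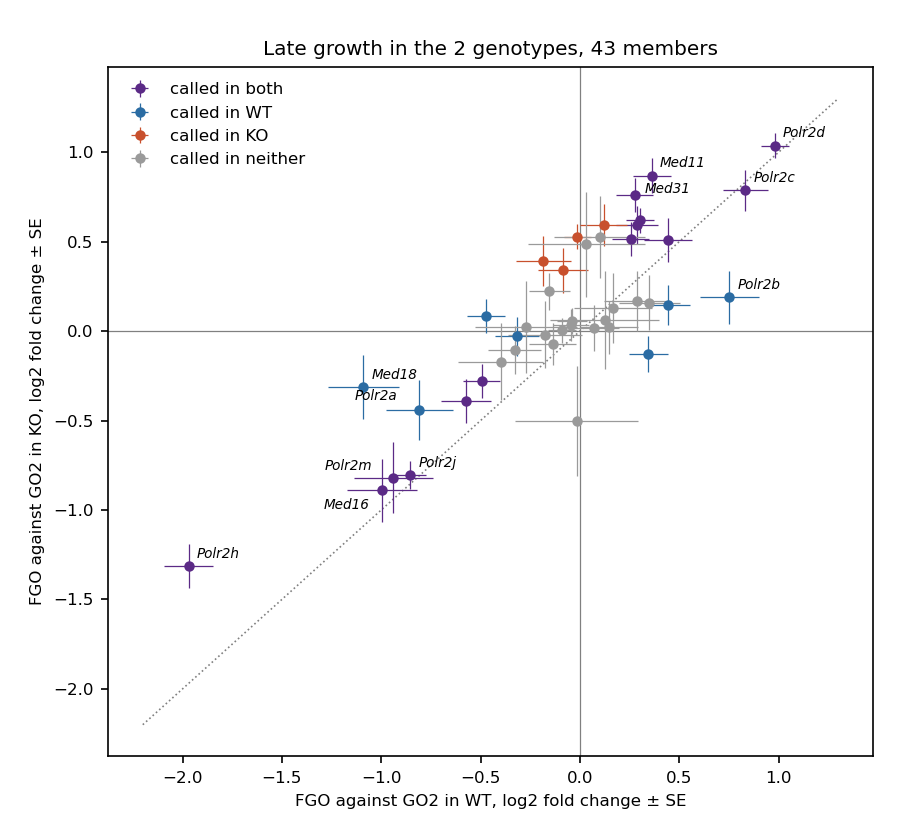
Log2 fold change from GO2 to FGO in WT (horizontal) and in KO (vertical) for the 43 members, with SE bars, coloured by where each member passed the test, and with a dotted line of equal change. Polr2h, Med16, Polr2m and Polr2j lie at the lower left and Polr2d and Polr2c at the upper right, while Med18 and Polr2b passed in WT and not in KO.

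With nFGO and FGO pooled as fully grown and GO1 and GO2 as growing, the 8 fully grown libraries lay wholly above the 8 growing ones for 7 members, against 15.3% of all genes. These were Polr2c, Polr2d, Polr2i, Polr2l, Med6, Med10 and Med11. They lay wholly below for 6 members, against 13.7% of all genes: Polr2a, Polr2h, Polr2j, Polr2m, Med16 and Med18. Within WT alone, 12 members lay wholly above (27.8% of all genes) and 14 wholly below (24.3%), and within KO alone 11 above (25.3%) and 8 below (22.4%). The labels give polyA RNA as the molecule of the 4 nFGO libraries and total RNA for the other 12, and this difference cannot be told apart from stage within nFGO.

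Promoters are shown for 4 of the 14 members that changed in both genotypes, 2 lower and 2 higher. They were picked after their letters were seen, because each holds a motif searched, and do not stand for the rest: Polr2h, Polr2m and Med16, which had larger falls, hold no ETS letters in the window searched. Each run is 150 bases of the sense strand from RefSeq (GRCm38.p6, the mm10 assembly) that ends just before the gene start, read from the RefSeq or the deposited start, whichever lies further upstream. Capitals mark a match on either strand to CCGGAAG (bound by ETS factors), to CCAAT, to GGGCGG (the GC box), to TATAAA, or to the longer motifs of NRF1 and YY1, and motifs may overlap. Med14 and Med19 fell, and Polr2c and Med11 rose.
Med14 (chrX:12762074-12762223, minus strand): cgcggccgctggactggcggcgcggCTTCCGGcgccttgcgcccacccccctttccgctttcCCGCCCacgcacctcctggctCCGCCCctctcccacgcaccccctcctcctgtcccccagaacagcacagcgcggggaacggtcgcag
Med19 (chr2:84678252-84678401, plus strand): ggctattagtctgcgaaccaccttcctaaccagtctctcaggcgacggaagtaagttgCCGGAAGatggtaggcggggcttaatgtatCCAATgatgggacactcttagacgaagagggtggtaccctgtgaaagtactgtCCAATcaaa
Polr2c (chr8:94857300-94857449, plus strand): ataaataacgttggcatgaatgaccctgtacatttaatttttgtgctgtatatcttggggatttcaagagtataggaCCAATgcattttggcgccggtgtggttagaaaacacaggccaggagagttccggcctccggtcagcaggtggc
Med11 (chr11:70451768-70451917, plus strand): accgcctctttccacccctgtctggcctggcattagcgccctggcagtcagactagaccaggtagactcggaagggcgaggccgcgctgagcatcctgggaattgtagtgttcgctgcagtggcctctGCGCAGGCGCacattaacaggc

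Over the 250 bases before the RefSeq start, 36 members matched the promoter table, and Polr2d, Polr2g, Polr2k, Med8, Med23, Med24 and Med30 did not. Their promoters had a median of 58.8% G and C and 18 CpG, against 52.4% and 6 over the 32851 promoters of the table. The GC box was in 66.7% of members and 32.7% of all promoters, the NRF1 letters in 19.4% and 3.74%, and the ETS letters in 16.7% and 6.91%. CCAAT was in 36.1% against 33.8%, TATAAA in 13.9% against 12.4%, and the YY1 letters in 0 members and 0.301% of all. Of the 6 members lower in both genotypes, 3 (Polr2j, Med14 and Med19) held the ETS letters, and of the 7 matched members higher in both, 0 did. The members and the whole promoter table are unlike sets. Each member has 1 promoter here and passed the filter of 1 RPKM. The 32851 promoters outnumber the 16940 genes kept and were not limited to genes expressed in oocytes. Whether the shares of the members differ from those of other expressed genes was not tested. These are matches of letters, with no test, and say nothing of what binds there.

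Between nFGO and FGO, 0 WT members passed by limma where 2.69% of all genes were called, 0.811% higher and 1.88% lower. At an unadjusted p under 0.05 there were 10 of 43 members, 1 higher and 9 lower in FGO, against 16.9% of all genes at that threshold, and the lowest adjusted p was 0.106, for Med22 (0.40). In KO oocytes 2 members passed, 1 in each direction, against 4.23% of all genes, 1.86% higher and 2.37% lower. Med22 (ENSMUSG00000015776.12, chr2:26905262-26910677, minus strand) held 115 and 104 RPKM in KO nFGO and 175 and 166 RPKM in KO FGO and was higher (log2 fold change 0.64, SE 0.12, adjusted p = 0.0123). Polr2j held 1230 and 1204 RPKM and 966 and 935 RPKM and was lower (log2 fold change -0.36, SE 0.077, adjusted p = 0.026). Neither overlapped. The Med22 call was lost without KO nFGO replicate 2 (0.108), KO FGO replicate 1 (0.0651) or KO FGO replicate 2 (0.0666), and that of Polr2j without any 1 of the 4 (0.0734 to 0.156). Polr2a held 1.48 and 1.14 RPKM in WT nFGO and 1.60 and 1.44 RPKM in KO nFGO and did not pass in either genotype. Hormone, the molecule label and time of entry into the series all differ between nFGO and FGO and cannot be told apart.

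Early growth moved fewer members. From GO1 to GO2 0 WT members passed by limma where 7.55% of all genes were called, 3.17% higher and 4.38% lower. At an unadjusted p under 0.05 there were 14 of 43, 7 in each direction, against 25.7% of all genes at that threshold, and the lowest adjusted p was 0.0564, for the head subunit Med20 (-0.51). In KO oocytes 4 members passed, all lower in GO2, against 9.5% of all genes called, 5.41% higher and 4.09% lower. Med14 (ENSMUSG00000064127.13, chrX:12675369-12762073, minus strand) held 19.1 and 18.5 RPKM in KO GO1 and 13.2 and 11.7 RPKM in KO GO2 (log2 fold change -0.56, SE 0.12, adjusted p = 0.0156). Med31 held 183 and 154 RPKM and then 119.9 and 108 RPKM (log2 fold change -0.55, SE 0.092, adjusted p = 0.00399). For both genes the GO2 libraries lay below the GO1 libraries.

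Polr2j held 2176 and 2331 RPKM in KO GO1 and 1694 and 1632 RPKM in KO GO2 (log2 fold change -0.44, SE 0.077, adjusted p = 0.00495). Med10 (ENSMUSG00000021598.9, chr13:69802395-69816104, plus strand) held 513 and 514 RPKM and then 433 and 404 RPKM (log2 fold change -0.30, SE 0.07, adjusted p = 0.0219). Neither overlapped. None of the 4 kept its call throughout: without KO GO2 replicate 2 the adjusted p was 0.166 for Med14, 0.0607 for Med31, 0.0622 for Polr2j and 0.209 for Med10. Without KO GO1 replicate 1 it was 0.0552 for Med14 and 0.0572 for Med10, and without KO GO2 replicate 1 it was 0.0511 for Med10. Polr2a held 3.47 and 2.98 RPKM in KO GO1 and 1.71 and 1.95 RPKM in KO GO2 and did not pass (-0.58, adjusted p = 0.0517), nor did it in WT (0.12, adjusted p = 0.705). The log2 fold change was above 0 for 26 of 43 members in WT and for 8 of 43 in KO. Over all genes its median was -0.006 in WT and -0.005 in KO. The WT and KO changes had the same sign for 30.2% of members and for 54.1% of all genes. The KO step uses the KO GO2 libraries, whose RPKM totals, 845605 and 832384, were the lowest of the series. Their part in these signs was not tested.

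The effect of the knockout was examined next, as KO against WT at each stage. At GO1 1 member passed, higher in KO, against 6.63% of all genes, 2.16% higher and 4.47% lower. Polr2i (ENSMUSG00000019738.15, chr7:30231948-30233390, plus strand) held 387 and 363 RPKM in WT and 465 and 506 RPKM in KO and was higher (log2 fold change 0.37, SE 0.095, adjusted p = 0.0383). The libraries did not overlap, but leaving out any single library of these 4 ended the call, at adjusted p of 0.0729 to 0.192. Polr2i shares 325 bases with Tbcb on the opposite strand, which had means of 332 RPKM in WT GO1 and 344 RPKM in KO GO1, and its part was not tested.

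The 4 kinase module members had higher means in KO GO1 than in WT GO1, and none passed the test. Med12 (ENSMUSG00000079487.11, chrX:101274030-101297465, plus strand) held 5.44 and 6.53 RPKM in WT and 13.6 and 10.8 RPKM in KO (0.91, adjusted p = 0.0838). Med13 held 1.91 and 4.07 RPKM in WT and 6.93 and 4.19 RPKM in KO (0.74, adjusted p = 0.168), and Med13l 2.14 and 2.02 RPKM in WT and 5.41 and 2.43 RPKM in KO (0.61, adjusted p = 0.169). For Med12l the values were 1.10 and 0.806 RPKM in WT and 1.94 and 1.02 RPKM in KO (0.32, adjusted p = 0.377). The WT and KO libraries overlapped for Med12l alone. In all 4, KO GO1 replicate 1 was the higher of the KO libraries. The median log2 difference was 0.67 over the 4 and -0.027 over all genes. In the authors' deposited table all 4 were also higher in KO GO1, with a p under 0.05 for Med13l, Med13 and Med12l and not for Med12.

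At GO2 5 members passed, all lower in KO, against 7.64% of all genes called, 2.96% higher and 4.68% lower. Polr2j held 2230 and 2155 RPKM in WT and 1694 and 1632 RPKM in KO (log2 fold change -0.40, SE 0.077, adjusted p = 0.013). Med31 held 155 and 159 RPKM in WT and 119.9 and 108 RPKM in KO (log2 fold change -0.46, SE 0.092, adjusted p = 0.0149). Neither overlapped. The other 3 belong to the head. Med6 (ENSMUSG00000002679.14, chr12:81573557-81595008, minus strand) held 334 and 315 RPKM in WT and 252 and 248 RPKM in KO (log2 fold change -0.38, SE 0.11, adjusted p = 0.05 after rounding, and above 0.05 with a pseudocount of 0.1, at 0.0512, or with no filter, at 0.057). Med30 (ENSMUSG00000038622.8, chr15:52712408-52730564, plus strand) held 355 and 361 RPKM in WT and 295 and 286 RPKM in KO (log2 fold change -0.30, SE 0.068, adjusted p = 0.0225). Med28 (ENSMUSG00000015804.14, chr5:45520229-45529276, plus strand) held 2235 and 2187 RPKM in WT and 1812 and 1810 RPKM in KO (log2 fold change -0.29, SE 0.07, adjusted p = 0.0307). All 3 had both KO libraries below both WT libraries.

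These GO2 calls were narrow. Each was lost without KO GO2 replicate 2, at adjusted p of 0.173 for Med31, 0.146 for Polr2j, 0.261 for Med6 and 0.197 for Med30, and at 0.196 for Med28. Without WT GO2 replicate 1 they stood at 0.0618, 0.0735, 0.209, 0.0861 and 0.138 in the same order, and without WT GO2 replicate 2 at 0.0932, 0.0665, 0.146, 0.129 and 0.122. Without KO GO2 replicate 1 Med6 (0.144), Med30 (0.0742) and Med28 (0.11) were lost. The KO GO2 libraries also had the lowest RPKM totals of the series, 845605 and 832384. With every library set to the same distribution by quantile normalization, 2 members were called, and Polr2j (0.053), Med30 (0.205), Med6 (0.201) and Med28 (0.597) were not. Polr2a held 2.41 and 2.81 RPKM in WT GO2 and 1.71 and 1.95 RPKM in KO GO2 and did not pass (-0.35, adjusted p = 0.233).

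At nFGO 5 members passed, 2 higher and 3 lower in KO, against 16.2% of all genes, 6.77% higher and 9.4% lower. Polr2b held 45.8 and 64.4 RPKM in WT and 29.2 and 32.3 RPKM in KO and was lower (log2 fold change -0.80, SE 0.15, adjusted p = 0.00423), a call that was kept without each of the 4 libraries and lost with only the WT and KO nFGO libraries fitted (0.0675). Its neighbour Igfbp7 had means of 79.3 RPKM in WT nFGO and 129 RPKM in KO nFGO. Polr2g held 788 and 867 RPKM in WT and 589 and 634 RPKM in KO and was lower (log2 fold change -0.44, SE 0.11, adjusted p = 0.0214). Med4 (ENSMUSG00000022109.6, chr14:73510025-73518849, plus strand), a middle subunit, held 232 and 228 RPKM in WT and 152 and 185 RPKM in KO and was lower (log2 fold change -0.46, SE 0.1, adjusted p = 0.0102). In all 3 both KO libraries lay below both WT libraries.

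Polr2h held 26.9 and 27.3 RPKM in WT nFGO and 34.6 and 38.0 RPKM in KO nFGO and was higher (log2 fold change 0.41, SE 0.12, adjusted p = 0.0433). Med26 (ENSMUSG00000045248.6, chr8:72494561-72548270, minus strand), an animal subunit that links Mediator to elongation factors in human cells, held 13.4 and 12.4 RPKM in WT and 18.9 and 18.4 RPKM in KO and was higher (log2 fold change 0.50, SE 0.12, adjusted p = 0.0196). Neither overlapped. Summed granulosa markers were 42.6 to 44.9 RPKM in WT nFGO and 63.7 to 72.1 RPKM in KO nFGO, and their part in these differences was not tested. The Polr2h call was lost without any 1 of the 4 libraries (0.0937 to 0.196), as was that of Med26 (0.0541 to 0.125). Polr2g was lost without WT nFGO replicate 2 (0.147), KO nFGO replicate 1 (0.131) or KO nFGO replicate 2 (0.0543), and Med4 without WT nFGO replicate 1 (0.0548), WT nFGO replicate 2 (0.0552) or KO nFGO replicate 1 (0.101).

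At FGO 8 members passed, 5 higher and 3 lower in KO, against 17.8% of all genes, 7.67% higher and 10.2% lower. Med26 held 14.3 and 13.7 RPKM in WT and 22.1 and 26.8 RPKM in KO and was higher (log2 fold change 0.76, SE 0.12, adjusted p = 0.00191). Med4 held 244 and 243 RPKM in WT and 167 and 173 RPKM in KO and was lower (log2 fold change -0.51, SE 0.1, adjusted p = 0.00496). Neither overlapped, and these 2 calls were kept without each of the 4 libraries. With only the WT and KO FGO libraries fitted, Med4 was called and Med26 was not (0.0526).

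The other 6 FGO calls were less stable. Med18 held 7.201 and 7.82 RPKM in WT and 11.52 and 14.4 RPKM in KO and was higher (log2 fold change 0.71, SE 0.18, adjusted p = 0.0168). Polr2h held 24.2 and 18.5 RPKM in WT and 30.1 and 27.4 RPKM in KO and was higher (log2 fold change 0.42, SE 0.12, adjusted p = 0.0345). Both genes fell during growth in WT, and in both the KO value after growth lay above the WT value.

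Med27 (ENSMUSG00000026799.15, chr2:29346819-29524793, plus strand) held 1001 and 1151 RPKM in WT and 1293 and 1405 RPKM in KO (log2 fold change 0.33, SE 0.094, adjusted p = 0.0314). Med30 held 364 and 345 RPKM in WT and 432 and 407 RPKM in KO (log2 fold change 0.24, SE 0.068, adjusted p = 0.0272). Both were higher in KO, with no overlap.

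Polr2g held 591 and 777 RPKM in WT and 468 and 502 RPKM in KO and was lower (log2 fold change -0.48, SE 0.11, adjusted p = 0.0113). Polr2j held 1117 and 1316 RPKM in WT and 966 and 935 RPKM in KO and was lower (log2 fold change -0.35, SE 0.077, adjusted p = 0.00891). Neither overlapped. Without WT FGO replicate 2, the library with less Smarca5, the log2 fold change was 0.24 for Polr2h, -0.29 for Polr2g and -0.23 for Polr2j. The adjusted p was then 0.0873 for Polr2g, 0.0716 for Polr2j, 0.255 for Polr2h, 0.141 for Med30 and 0.0522 for Med18. Without WT FGO replicate 1 it was 0.0854 for Med18, 0.196 for Med27 and 0.0503 for Med30. Without KO FGO replicate 1 it was 0.0731 for Polr2g, 0.166 for Polr2h, 0.0551 for Med27 and 0.152 for Med30. Without KO FGO replicate 2 it was 0.0654 for Polr2j, 0.0771 for Polr2h, 0.135 for Med18, 0.184 for Med27 and 0.0621 for Med30. Polr2a held 0.998 and 1.12 RPKM in WT FGO and 1.03 and 1.14 RPKM in KO FGO, which overlapped (0.018, adjusted p = 0.959).

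**Figure D5:**
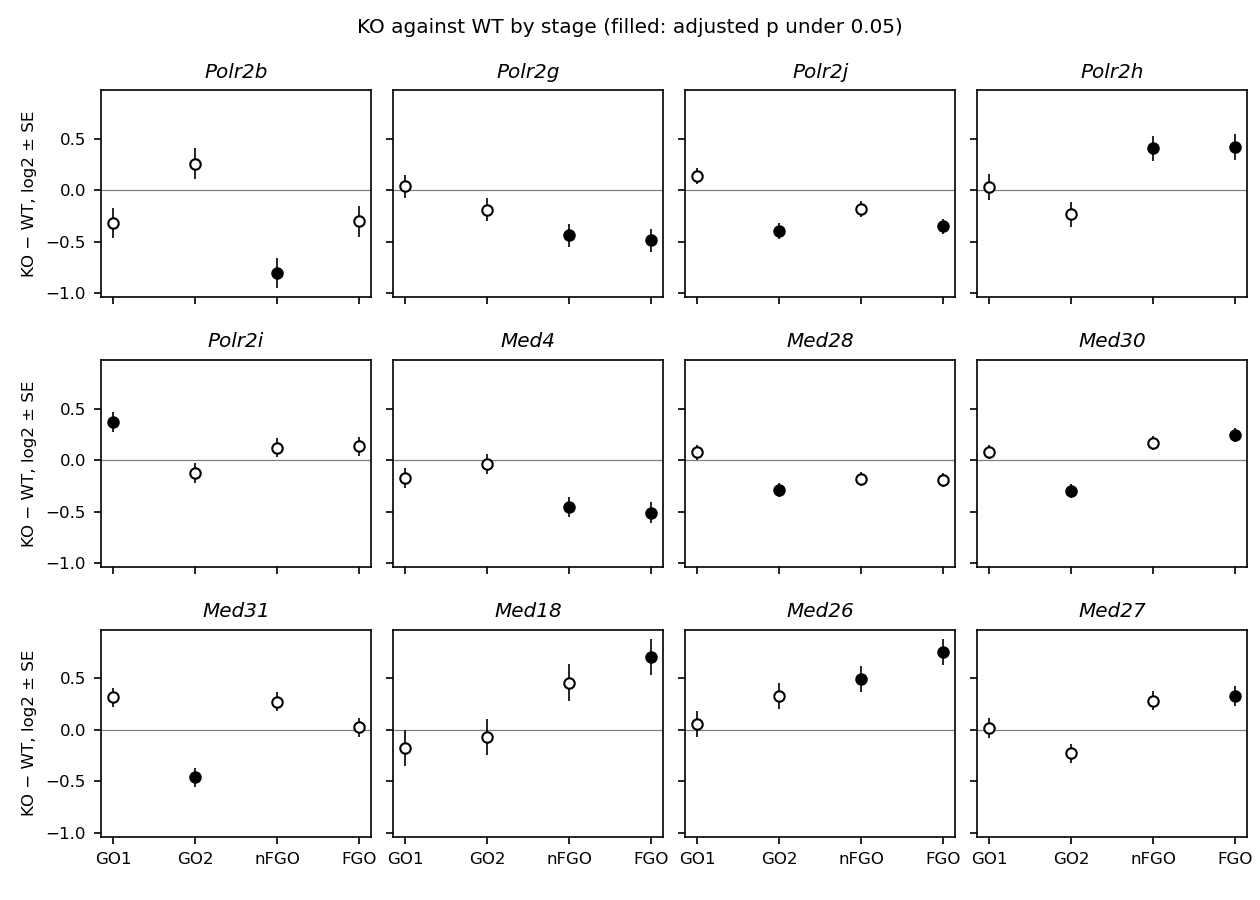
KO less WT log2 fold change with SE at each stage for 12 members, filled where the adjusted p was under 0.05. Med26 goes from near 0 at GO1 to 0.76 at FGO, Med4 and Polr2g lie below 0 at both fully grown stages, and Polr2j, Med28, Med30 and Med31 are lower at GO2.

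Averaged over the 4 stages, 8 members passed, 2 higher and 6 lower in KO, against 33% of all genes, 14.3% higher and 18.8% lower. The averages differed by 0.41, adjusted p = 0.000435 for Med26, -0.29, adjusted p = 0.000888 for Med4, -0.29, adjusted p = 0.0102 for Polr2b and -0.27, adjusted p = 0.00337 for Polr2g. For Med14 the average difference was -0.24, adjusted p = 0.0105, for Polr2j -0.20, adjusted p = 0.00218 and for Med28 -0.15, adjusted p = 0.00691. These 7 were kept without each of the 16 libraries, but under quantile normalization Med28 (0.474) and Polr2j (0.052) were lost. An average can join stages of opposite sign. At GO2 Polr2b was higher in KO, at 27.1 and 29.0 RPKM against 23.6 and 22.9 RPKM in WT. The authors' deposited table has a log2 fold change of 0.30 with p = 0.0101 for it there. At GO1 both KO libraries of Polr2j and of Med14 lay above both WT libraries. Med12 (0.44, adjusted p = 0.0353) was lost without 8 single libraries, 1 of each group, at 0.0719 to 0.0846: WT and KO replicate 1 at GO1, WT and KO replicate 2 at GO2, WT and KO replicate 1 at nFGO, and WT and KO replicate 2 at FGO.

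In RPKM, Med26 stood higher in KO at each stage, but in the tests by stage it passed only at nFGO and FGO. At GO1 the authors' deposited table has a log2 fold change of -0.015 with p = 0.978. It held 17.1 and 17.2 RPKM in WT GO1 against 18.1 and 17.7 RPKM in KO GO1, and 15.5 and 14.4 RPKM in WT GO2 against 17.9 and 20.3 RPKM in KO GO2. All 8 KO libraries lay above all 8 WT libraries, as for 0.364% of all genes. No member had all 8 KO libraries below all 8 WT libraries, against 1.02% of all genes. Within the fully grown stages alone, 4 KO against 4 WT libraries, the KO lay wholly above WT for Polr2h, Med11, Med18, Med26, Med27 and Med30, 6 members against 11.8% of all genes. It lay wholly below WT for Polr2b, Med4 and Med28, 3 members against 13.9%.

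Whether the KO effect differed between stages was tested directly. From GO1 to GO2 it became more negative for 3 members, where the effect changed for 4% of all genes, 1.84% upward and 2.16% downward. The KO less WT log2 difference went from 0.32 to -0.46 for Med31 (difference -0.77, adjusted p = 0.0153), from 0.14 to -0.40 for Polr2j (difference -0.54, adjusted p = 0.0247), and from 0.23 to -0.22 for Med10 (difference -0.45, adjusted p = 0.0334). From GO2 to FGO it became more positive for 2 members, where it changed for 3.8% of all genes, 1.89% upward and 1.91% downward. These were Med27 (difference 0.56, adjusted p = 0.0415) and Med30 (difference 0.54, adjusted p = 0.0114). Both differences use the same GO2 libraries as the comparisons above and are not separate evidence. Med18 and Polr2h, called in KO against WT at FGO, did not pass this test (0.78, adjusted p = 0.103 and 0.65, adjusted p = 0.06), nor did Polr2b (-0.56, adjusted p = 0.154), which rose in WT.

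The rest of the transcription machinery gave a frame for late growth, where 26.3% of all genes rose and 22.1% fell in WT and 22.3% rose and 19.4% fell in KO. Of 36 general transcription factor genes, 12 rose and 7 fell in WT and 12 rose and 9 fell in KO. Tbpl2, the oocyte form of the TATA-binding protein, fell from 61.0 and 65.3 to 18.1 and 20.9 RPKM in WT (-1.65, adjusted p = 2.96e-06) and from 60.6 and 63.1 to 18.4 and 17.6 RPKM in KO (-1.73, adjusted p = 4.26e-06). Ccnh, the cyclin of the TFIIH kinase, rose from 52.9 and 52.4 to 157 and 143 RPKM in WT (1.49, adjusted p = 0.000279) and from 68.0 and 42.4 to 153 and 159 RPKM in KO (1.52, adjusted p = 0.000338). The WT and KO libraries of the 2 stages did not overlap for either gene. Of 29 pausing and elongation factor genes, 7 rose and 5 fell in WT and 7 rose and 8 fell in KO. Cdk9, the kinase of P-TEFb that releases paused Pol II, fell from 13.7 and 9.85 to 3.36 and 3.51 RPKM in WT (-1.51, adjusted p = 4.34e-05) and was higher in KO than WT at nFGO, at 5.33 and 5.48 against 2.74 and 2.58 RPKM (0.81, adjusted p = 0.0122).

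Of 18 genes for kinases and phosphatases of the Polr2a tail and for Pol II assembly, 5 rose and 4 fell in WT and 5 rose and 2 fell in KO. Gpn3, a GTPase needed for nuclear import of Pol II in yeast and human cells, fell from 43.4 and 51.5 to 10.7 and 15.4 RPKM in WT (-1.80, adjusted p = 1.26e-05) and in KO (-1.51, adjusted p = 7.08e-05). Rpap2, a phosphatase and import factor of Pol II, rose from 43 and 44.1 to 93.6 and 89.5 RPKM in WT (1.05, adjusted p = 0.000521) and in KO (1.18, adjusted p = 0.00032). Rpap2 was also lower in KO than WT at GO1 (-1.18, adjusted p = 0.00436), GO2 (-0.74, adjusted p = 0.0312) and FGO (-0.61, adjusted p = 0.0363), and its GO1 values were 76.3 and 83.4 RPKM in WT and 33.3 and 36.2 RPKM in KO. Of the kinase module partners, neither Cdk8 nor Ccnc was called in late growth in either genotype, and averaged over the stages both were lower in KO, at -0.21, adjusted p = 0.0314 and -0.21, adjusted p = 0.041.

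The other 2 polymerases were set beside Pol II. Of 11 genes of subunits particular to Pol III, 6 fell and 0 rose in WT and 4 fell and 0 rose in KO, with medians of -0.60 and -0.33. Over the 13 Polr2 genes, which include Polr2m and 5 subunits shared with Pol I and Pol III, the medians were 0.10 and 0.19. Over the 7 subunits particular to Pol II they were 0.44 in WT and 0.19 in KO. Over the 5 shared subunits they were -0.14 and 0.22. Polr3e fell from 3.98 and 4.39 to 1.72 and 0.822 RPKM in WT (-1.22, adjusted p = 0.000327) and in KO (-1.28, adjusted p = 0.000321). Of 8 genes listed for Pol I, 1 rose and 3 fell in WT and 2 rose and 3 fell in KO. This list is not particular to Pol I, because it includes Polr1c and Polr1d, whose products are also part of Pol III. Twistnb, which encodes a Pol I subunit, fell in WT (-0.97, adjusted p = 0.000255) and in KO (-0.83, adjusted p = 0.000976). The lists were not tested against each other or against all genes.

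The authors' deposited table gives its own KO over WT fold change and p-value for each stage, which is not stated to be adjusted. Among the members 7 had a p under 0.05 in the authors' deposited table at GO1, 6 higher and 1 lower. Of all genes 17.5% did, 8.6% higher and 8.89% lower. At GO2 18 members did in the authors' deposited table, 4 higher and 14 lower, against 25.2% of all genes, 11.5% higher and 13.7% lower. At nFGO 11 members did against 24.6%, and at FGO 10 against 25.2%, again in the authors' deposited table. Its log2 fold changes had the sign of those given here for 39, 41, 41 and 43 of the 43 members at GO1, GO2, nFGO and FGO. For the kinase module at GO1 the authors' deposited table has log2 fold changes of 0.96 with p = 1.74e-05 for Med13l, 0.82 with p = 0.00195 for Med13, 0.69 with p = 0.0424 for Med12l and 0.24 with p = 0.493 for Med12. The 4 genes did not pass the adjusted test given here. For Med26 at FGO it has 0.77 with p = 0.00027, for Med4 at FGO -0.52 with p = 9.16e-05, and for Polr2b at nFGO -0.45 with p = 0.000103, all in the authors' deposited table.

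Some members share bases with another gene, and whether counting used strand is not given in the sources used here. Of the 43, 16 overlap another gene of the table, and 7 overlap one with a group mean of 5 RPKM or more. Besides Polr2b with Igfbp7 and Polr2i with Tbcb, these are Polr2c with Dok4 (9708 bases, means of 10.9 to 14.9 RPKM), Polr2j with Lrwd1 (176 bases, 5.21 to 11.9 RPKM) and Polr2f with 1700088E04Rik (245 bases, 1.75 to 5.38 RPKM). Med21 overlaps Tm7sf3 (278 bases, 32.1 to 61.8 RPKM). Med19 overlaps Tmx2 (739 bases) and Zdhhc5 (246 bases). Tmx2 fell along with Med19, from a mean of 8.66 RPKM in WT GO2 to 1.03 RPKM in WT FGO, and its part in the Med19 value was not tested.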

How the data were processed

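The authors deposited RPKM values for every gene. The submitters' processing notes name mm10 and list HISAT2 2.1.0, Trim Galore 0.4.5, Cuffnorm, Cufflinks 2.2.1, deepTools 3.0.2 and DESeq 1.34.1 without roles. The table also holds the authors' log2 fold changes and p-values, deposited per stage.

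Of 16975 gene IDs, 35 written with 2 sets of values were left out, none a member, which left 16940 genes. Only 28.6% to 33.9% of the ratios of low values were those of whole numbers, within 2%, so reads were not recovered. limma 3.58.1 (R 4.3.3) was fitted on log2(RPKM + 1) with a variance trend over all 16 libraries, 1 mean per group (8 residual and 4.01 prior degrees of freedom), for the 14557 genes that reached 1 RPKM in 2 or more of them. Fits were tested on simulated data. Calls were made at an adjusted p under 0.05 within each comparison. Members and gene lists were chosen with earlier results of these data known. Named members are Polr2a and up to 8 calls per comparison by size of change. Alternatives were a pseudocount of 0.1, no filter, quantile normalization, equal library medians, only the compared groups, a replicate block, and each library left out. The 8 ATAC-seq samples were not analysed here.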

Additional observations from a re-analysis of the deposited data

Results flagged for a closer look

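For 5 members the effect of the knockout, KO less WT on the log2(RPKM + 1) scale, differed between stages by limma's test of the difference (Benjamini-Hochberg adjusted p under 0.05). Between GO1 and GO2 it changed by -0.77 for Med31, by -0.54 for Polr2j and by -0.45 for Med10. Med31 was higher in both KO libraries at GO1 (183 and 154 against 132 and 137 RPKM) and lower in both at GO2 (119.9 and 108 against 155 and 159 RPKM). Polr2j stood at 2176 and 2331 RPKM in KO and 2065 and 2023 RPKM in WT at GO1. Med10 stood at 513 and 514 RPKM in KO against 428 and 447 RPKM in WT at GO1, and at 433 and 404 against 468 and 509 RPKM at GO2. Between GO2 and FGO it changed by 0.56 for Med27 and by 0.54 for Med30. Med30 was lower in both KO libraries at GO2 and higher in both at FGO.

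Of these 5, Med31 (0.0932), Polr2j (0.122), Med10 (0.152), Med27 (0.165) and Med30 (0.0669) all lost the call without KO GO2 replicate 2. Without WT GO2 replicate 2 the adjusted p was 0.0618 for Med31, 0.0737 for Polr2j, 0.113 for Med10, 0.0957 for Med27 and 0.0506 for Med30. Without WT GO1 replicate 1 it was 0.0545 for Med31, 0.0721 for Polr2j and 0.104 for Med10, and without WT GO1 replicate 2 it was 0.0593, 0.0835 and 0.0813 in that order. Without WT GO2 replicate 1 it was 0.0675 for Polr2j, 0.054 for Med10 and 0.114 for Med27, and without KO GO2 replicate 1 it was 0.06, 0.0603 and 0.0686. Med10 was also lost without KO GO1 replicate 1 (0.0672), and Med27 without WT FGO replicate 1 (0.105), KO FGO replicate 1 (0.0675) or KO FGO replicate 2 (0.13).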

How the results depend on the processing

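Counts of members called moved by over 1.5 times in these cases. With only the compared groups fitted, which leaves fewer degrees of freedom, the count was 0 for KO against WT at GO1 and at GO2, for GO2 against GO1 in KO, for FGO against nFGO in KO and for the change of the KO effect from GO1 to GO2, 2 at nFGO and 1 at FGO. Quantile normalization gave 2 at GO1, 2 at GO2, 14 for the average over stages and 1 for FGO against nFGO in KO. Equal library medians gave 3 for KO against WT at GO1, 1 for GO2 against GO1 in WT, 7 for it in KO and 7 for the change of the KO effect from GO1 to GO2. Without the filter the change of the KO effect from GO2 to FGO had 1 call. Same-numbered WT and KO libraries of a stage deviated with correlations of -0.0187 to 0.0962, so they share only a number; a replicate block gave 3 calls for GO2 against GO1 in WT and 5 for the change of the KO effect from GO1 to GO2, and lost 1 call among the members of the report, Med26 for FGO against GO2 in KO (adjusted p = 0.0532). With 1 library left out, the counts ran from 0 to 6 at GO1, 0 to 2 at GO2, 1 to 2 at nFGO, 3 to 6 at FGO and 7 to 13 on average for KO against WT. They ran from 15 to 19 in WT and 13 to 15 in KO for FGO against GO2, 0 to 0 in WT and 0 to 7 in KO for GO2 against GO1, and 0 to 1 in both for FGO against nFGO. They ran from 0 to 10 and from 0 to 2 for the changes of the KO effect from GO1 to GO2 and from GO2 to FGO. Polr2a, never called in these, changed sign with 1 library left out (range for KO against WT at FGO -0.025 to 0.060, for GO2 against GO1 in WT -0.070 to 0.31): for KO against WT at FGO without WT FGO replicate 1 (-0.025) or KO FGO replicate 2 (-0.021), and for GO2 against GO1 in WT without WT GO1 replicate 2 (-0.070). The cause of these shifts was not tested. Read depth is unknown, so how far it limits the members under 5 RPKM could not be set.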
